A study of Mus musculus with 4 samples.

Results

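Ribosome assembly genes encode the nucleolar factors that make, modify and fold the precursor of ribosomal RNA into ribosomal subunits. A list of 43 such genes was followed in primary mouse embryonic fibroblasts, connective tissue cells grown from e14.5 embryos. Its members are probe sets whose platform symbol is in the list and whose signal reached 500 on at least 1 of 4 arrays, with the brightest probe set standing for each gene. Of the 43 genes, 33 met this rule, 6 stayed under 500 on every array, 1 lay only on a probe set shared with other gene symbols, and 3 (Dkc1, Nob1 and Npm3) were not analysed here. The 33 measured members are among 4645 named genes that reached 500. The list was selected on the hypoxia changes of these same arrays, so all changes of the members are given as a description, without a test.

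Wild-type and tri-CH1 cells were compared. In tri-CH1 cells the CH1 domain, a protein-binding module, is missing from both copies of the coactivator p300 and from 1 copy of its relative CBP, so that 1 CBP copy with the domain remains. Both kinds of cell spent 6 h in air-like 21% oxygen, called normoxia here, or in 0.1% oxygen, called hypoxia. Temperature was 37 °C, carbon dioxide was 5%, and the fresh medium, with 10% serum, had been held overnight at the matching oxygen level. Each of these 4 groups was measured on 1 Affymetrix array, so no value has a replicate error, and a difference may belong to the array, the embryo or the culture. How many embryos stood behind a culture was not stated in the labels.

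The oxygen labels were checked on a gene known to respond. The mitophagy receptor Bnip3, a target of the hypoxia-inducible factor, went from 402 to 10530 in wild-type cells and from 494 to 10422 in tri-CH1 cells. Crebbp, the gene of CBP, was under 200 on every array and gave no check of the genotype, and the gene of p300 was not analysed here. The wild-type and tri-CH1 cultures also differed in the X-inactivation transcript Xist, at 3096 and 3523 in wild-type cells and 318 and 263 in tri-CH1 cells. All 8 fibroblast markers reached 500 on at least 1 array, with a summed signal between 111236 and 122601, but single markers moved. Thy1 stood at 13148 and 12389 in wild-type cells and at 3837 and 3274 in tri-CH1 cells, Pdgfrb went from 1337 to 518 with hypoxia in wild-type cells, and Col1a1 was higher in tri-CH1 by 1.02 in hypoxia. None of the endothelial, blood, muscle or neural markers reached 500. The summed signal of 5 epithelial markers was 985 and 4817 in wild-type cells and 1251 and 3224 in tri-CH1 cells, in the order normoxia and hypoxia. Most of the hypoxic signal was Krt19. Of the 5 markers, 3 reached 500 on at least 1 array: Krt19, Krt8, at up to 502, and Krt18, at up to 588. Epcam and Cdh1 were at 36.7 or less. Between 6066 and 6328 of 22690 probe sets reached 500 on an array. The background after scaling was 139 and 246 for normoxic and hypoxic wild-type cells, and 343 and 393 for the tri-CH1 pair, and the array of wild-type normoxia belonged to a different lot from the rest. Background, lot, Xist and these markers move with the groups, and their part in the results below was not tested.

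As background, RNA polymerase I transcribes the ribosomal RNA precursor in the nucleolus, and small nucleolar ribonucleoproteins (snoRNPs) guide its chemical modification. Box C/D snoRNPs direct methylation of ribose, and box H/ACA snoRNPs direct the conversion of uridine to pseudouridine. Separate sets of proteins then assemble the precursors of the small and the large subunit. The pathway is among the costliest of a growing cell, and the transcription factor MYC is a well-known activator of its genes, through the E box letters CACGTG.

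Since the members were lower together in hypoxia, their promoters were searched for shared letters. RefSeq promoter windows of build GRCm38.p6, from 250 bases before to 50 bases after a transcript's start, were found for 29 of the 33 measured members, in 31 windows. The E box CACGTG, which reads the same on both strands, was in 8 of these 31 windows (25.8%), against 10.9% of the 4905 windows of genes that reached 500 and 7.2% of all 32851 windows. The core letters of the hypoxia response element were searched on both strands. The core ACGTG was in 35.5% of the members' windows, 28.3% of those of genes that reached 500 and 19.6% of all, and an E box contains these letters, so it counts here as well. The core GCGTG was in 64.5%, 53.8% and 32.4%. Each E box is shown in capitals within 30 bases, because it is the element by which MYC is known to act on such genes. The number after the gene is the place of the first capital, counted from the start site without a zero.
Imp4 (-121), chr1:34439696-34439725, plus strand: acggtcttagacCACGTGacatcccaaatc
Wdr77 (10), chr3:105959495-105959524, plus strand: gcagaggtacacCACGTGtgcggtccctcc
Nop2 (-60), chr6:125131811-125131840, plus strand: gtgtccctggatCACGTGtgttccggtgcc
Utp4 (16), chr8:106893643-106893672, plus strand: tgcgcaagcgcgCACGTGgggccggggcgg
Pes1 (3), chr11:3963965-3963994, plus strand: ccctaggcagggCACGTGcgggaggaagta
Mybbp1a (41), chr11:72441347-72441376, plus strand: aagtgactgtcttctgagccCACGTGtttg
Utp18 (-20), chr11:93885769-93885798, minus strand: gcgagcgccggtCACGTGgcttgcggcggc
Wdr43 (18), chr17:71616220-71616249, plus strand: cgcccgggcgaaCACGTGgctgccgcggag

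An E box did not separate the members by the size of their hypoxia change. The 8 measured members with a match changed by a median log2 of -0.55 in wild-type cells and -0.26 in tri-CH1 cells, and the 21 with a window and no match had -0.65 and -0.39. A match is only a run of letters, and binding was not measured.

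The promoters of 3 members with contrasting changes are given upstream of the annotated gene start, with every E box and every response element core of either strand in capitals. Nop58 was lower in both genotypes, and Nop2 and Rcl1 were past 2-fold in wild type only. The promoter of Nop2 held 1 E box and 2 further GCGTG, that of Nop58 a single GCGTG, and that of Rcl1 none of these letters.
Nop2, chr6:125131633-125131882, plus strand: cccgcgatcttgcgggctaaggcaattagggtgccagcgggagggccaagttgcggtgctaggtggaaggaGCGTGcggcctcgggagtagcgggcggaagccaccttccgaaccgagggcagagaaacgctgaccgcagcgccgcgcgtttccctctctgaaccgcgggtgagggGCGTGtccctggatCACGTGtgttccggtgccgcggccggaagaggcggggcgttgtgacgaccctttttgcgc
Nop58, chr1:59684756-59684960, plus strand: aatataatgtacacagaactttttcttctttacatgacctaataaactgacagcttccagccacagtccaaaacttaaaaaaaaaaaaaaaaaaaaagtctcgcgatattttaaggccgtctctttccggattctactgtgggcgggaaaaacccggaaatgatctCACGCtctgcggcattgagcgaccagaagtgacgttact
Rcl1, chr19:29101125-29101374, plus strand: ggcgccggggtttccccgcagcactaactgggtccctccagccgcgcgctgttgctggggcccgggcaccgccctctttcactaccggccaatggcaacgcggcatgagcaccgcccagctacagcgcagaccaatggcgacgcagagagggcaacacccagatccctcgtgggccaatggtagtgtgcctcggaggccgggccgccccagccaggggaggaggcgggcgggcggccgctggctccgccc

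In wild-type fibroblasts, most measured members had a lower signal in hypoxia. A change is given on the log2 scale, after signals under 200 were raised to 200, and a gene is counted where at least 1 array of the pair compared reached 500. Of the 30 members that counted, 27 had a change below 0, against 56.9% of all genes, 15 were lower by at least 1.5-fold, against 6.79%, and 7 were lower by at least 2-fold, against 1.19%. None was higher by 1.5-fold, against 285 of 4125 genes. The median change of the 33 measured members was -0.60, beside -0.05 for all genes. Their changes ran from -1.82 for Wdr77, with Rcl1 bounded at -1.61, to 0.23 for Npm1. The list was chosen for this direction, so these shares carry no weight as support. In bulk RNA, fewer cells that make a transcript and less of it per cell cannot be told apart, and since each array was scaled to the same target, a change in the total RNA of a cell would not be seen.

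In tri-CH1 fibroblasts the members were also lower in hypoxia, by less. Of 33 that counted, 31 had a change below 0, against 54.1% of all genes, 8 were lower by at least 1.5-fold, against 6.36%, and 3 were lower by at least 2-fold, against 0.987%. None was higher by 1.5-fold, against 373 of 4358 genes. The median change was -0.36, from -1.38 for Pop5 to 0.06 for Npm1, beside -0.03 for all genes. The limit of 500 bears on these counts. In tri-CH1 cells 33 members reached it in normoxia, 3 of them on no other array, and 24 in hypoxia. In wild-type cells 30 reached it in normoxia and 20 in hypoxia. A member that reached 500 only on the normoxia array of a pair could only be lower in hypoxia. The 2 hypoxia comparisons share no array. In 26 of the 33 members both hypoxia signals lay below both normoxia signals, against 22.5% of all genes; the exceptions were Fbl, Pes1, Npm1, Ncl, Polr1a, Polr1c and Noc4l. The wild-type hypoxia array held the lowest signal of 25 members and the highest of none; over all genes it was also the most often lowest array, in 32.2%, and the least often highest, in 19.5%.

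**Figure D1:**
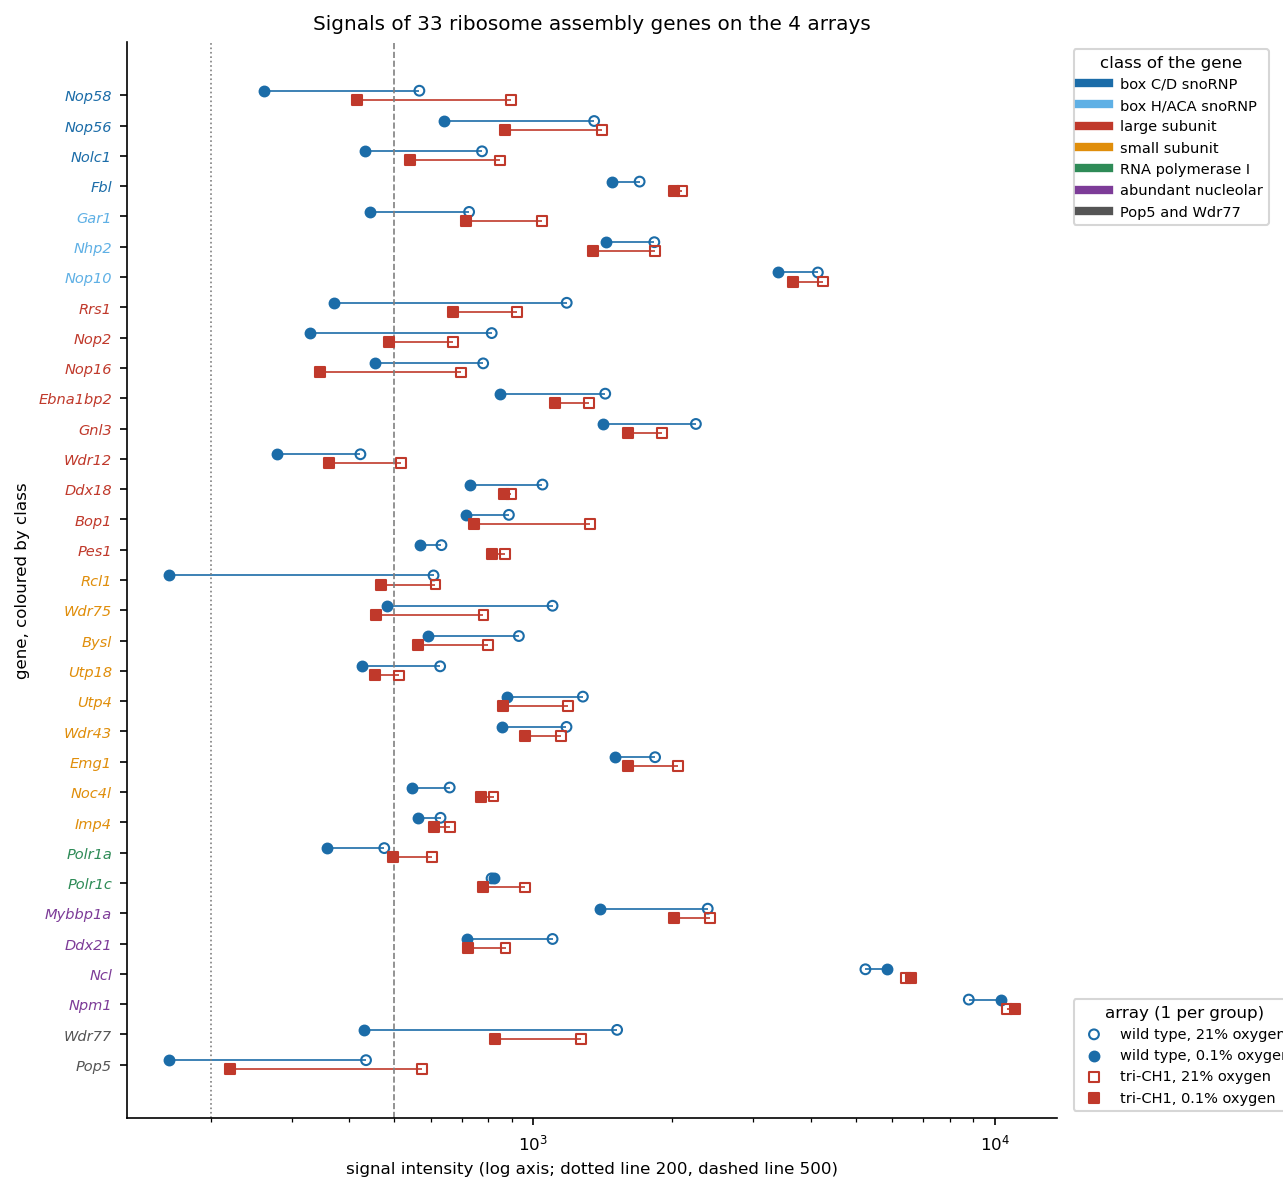
Signal intensity (log axis) of each of the 33 measured members on the 4 arrays, 1 array per group, with a line from normoxia (open) to hypoxia (filled) for wild type (blue circles) and tri-CH1 (red squares); gene names are coloured by class, and dotted and dashed lines mark 200 and 500. The filled symbol lies left of the open one for most genes, and Npm1 and Ncl, the brightest, run the other way.

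Among the proteins of the box C/D snoRNPs, Nop56, Nop58 and the snoRNP chaperone Nolc1 had lower signals in hypoxia in both genotypes, and the probe sets of Fbl, the methyltransferase, differed. Nop58, a core scaffold protein of the particle, had signals of 567 in normoxia and 261 in hypoxia in wild-type cells, and of 894 and 416 in tri-CH1 cells. These are changes of -1.12 and -1.10, past 2-fold in both genotypes, and the wild-type pair lay below the tri-CH1 pair at the same oxygen level. Nop56, its partner scaffold, went from 1356 to 641 in wild-type cells, a change of -1.08, and from 1408 to 868 in tri-CH1 cells, a change of -0.70. Its other bright probe set gave -0.66 in wild-type cells and 0.24 in tri-CH1 cells, so that the probe sets of Nop56 differ in direction in tri-CH1 cells. Nolc1, which accompanies snoRNPs to the nucleolus, went from 775 to 432 in wild-type cells and from 846 to 542 in tri-CH1 cells, changes of -0.84 and -0.64, and its other bright probe set gave -1.05 and -0.74. Fbl stood at 1701 and 1479 in wild-type cells and at 2102 and 2024 in tri-CH1 cells, changes of -0.20 and -0.05, while its other bright probe set gave 0.09 and -0.39. The class median was -0.96 in wild-type cells and -0.67 in tri-CH1 over 4 measured genes. Rrp9, a protein of the U3 particle in this class, was under 200 on every array.

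The 3 box H/ACA proteins had lower signals in hypoxia in both genotypes, with class medians of -0.35 and -0.45 and none past 2-fold by its brightest probe set. The order of this class and box C/D in tri-CH1 depends on the probe sets: the medians were -0.59 and -0.23 when all probe sets of a gene were averaged, -0.59 and -0.46 when only those at 500 were, and -0.87 and -0.72 with plain _at probe sets. Gar1, a protein of the mature particle, went from 727 to 442 in wild-type cells and from 1043 to 715 in tri-CH1 cells, changes of -0.72 and -0.55. Nhp2, which binds the guide RNA, went from 1831 to 1437 and from 1840 to 1350, changes of -0.35 and -0.45. Nop10, a small scaffold protein, went from 4140 to 3395 and from 4252 to 3657, changes of -0.29 and -0.22. Its other bright probe set went from 2944 to 2057 and from 2248 to 1124, a larger decrease for both genotypes and about 2-fold in tri-CH1 cells, so the size of the change of Nop10 is uncertain. Both hypoxia signals lay below both normoxia signals in these 3 genes, as in 26 of the 33 members and 22.5% of all genes.

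By their brightest probe sets, all 9 measured large subunit factors had lower signals in hypoxia in both genotypes. The order of the genes differed between the genotypes. The class median was -0.67 in wild-type cells and -0.46 in tri-CH1 cells. Rrs1, which takes part in placing the smallest ribosomal RNA in the subunit, went from 1182 to 370 in wild-type cells, 3.20-fold lower, and from 922 to 672 in tri-CH1 cells, a change of -0.46. Nop2, a methyltransferase of the ribosomal RNA, went from 813 to 328 in wild-type cells, 2.48-fold lower, and from 670 to 488 in tri-CH1 cells, also a change of -0.46. For both genes the wild-type hypoxia array was the lowest by a wide margin and the wild-type normoxia array the highest. Nop16 had the other order: it went from 779 to 455 in wild-type cells, a change of -0.78, and from 699 to 345 in tri-CH1 cells, where it was 2.03-fold lower. Nop16 was under 2-fold in tri-CH1 with a floor of 400, at -0.81, with each array scaled to the same median, at -0.95, and with cyclic loess, at -0.98.

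Pes1, Bop1 and Wdr12 form one complex in large subunit assembly, and their changes were unequal. Bop1 went from 886 to 714 in wild-type cells and from 1327 to 743 in tri-CH1 cells, changes of -0.31 and -0.84. Its tri-CH1 normoxia signal stood apart, above the other 3 arrays, which lay between 714 and 886. Pes1 stood at 633 and 569 in wild-type cells and at 868 and 814 in tri-CH1 cells, changes of -0.15 and -0.09, both less than the spread between probe sets. Wdr12 went from 422 to 278 and from 518 to 360, changes of -0.60 and -0.52, and reached 500 only on the tri-CH1 normoxia array.

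By their brightest probe sets, the remaining large subunit genes changed more in wild type than in tri-CH1 cells. Gnl3, the GTPase nucleostemin, went from 2253 to 1414 in wild-type cells and from 1906 to 1609 in tri-CH1 cells, changes of -0.67 and -0.24. Ebna1bp2, a nucleolar scaffold of the precursor, went from 1433 to 848 and from 1319 to 1118, changes of -0.76 and -0.24. A dimmer probe set of Ebna1bp2, at 384 or less, went the other way in wild type, with changes of 0.47 and -0.31. Ddx18, an RNA helicase, went from 1048 to 729 and from 894 to 864, changes of -0.52 and -0.05. A dimmer probe set of Ddx18 gave -0.25 and 0.09. In the brightest probe set of each of these 3 genes, the wild-type normoxia signal was the highest of the 4 arrays and the wild-type hypoxia signal the lowest. Rrp1b, another large subunit factor, peaked at 499.9 and so lay just outside the limit of 500, while Wdr12, at 518, lay just inside.

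Small subunit factors had a class median of -0.54 in wild-type cells and -0.36 in tri-CH1 over 9 measured genes, and again none was higher in hypoxia. Rcl1, a cyclase-like protein of the small subunit processome, went from 608 to 163 in wild-type cells and from 614 to 468 in tri-CH1 cells. The hypoxic wild-type signal is under 200, so the decrease was at least 3.04-fold there, against a change of -0.39 in tri-CH1 cells. The 2 normoxia signals of Rcl1 were nearly equal, and the wild-type hypoxia signal stood far below the other 3. With a floor of 400 the wild-type change of Rcl1 was -0.61. Wdr75, Wdr43 and Utp4 belong to a subcomplex that joins the nascent RNA early. Wdr75 went from 1102 to 482 in wild-type cells, 2.28-fold lower, and from 780 to 456 in tri-CH1 cells, a change of -0.77. Utp4 went from 1282 to 880 and from 1191 to 859, changes of -0.54 and -0.47. Wdr43 went from 1181 to 858 and from 1150 to 960, changes of -0.46 and -0.26. All 3 subcomplex genes had both hypoxia signals below both normoxia signals, as had 26 of the 33 members and 22.5% of all genes.

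Of the other small subunit genes, Bysl, which acts late on the cytoplasm-bound precursor, went from 931 to 592 in wild-type cells and from 799 to 562 in tri-CH1 cells, changes of -0.65 and -0.51. A dimmer probe set of Bysl gave at least as large a decrease, -0.91 and -0.92, with both hypoxia signals under 200. Utp18, of another early subcomplex, went from 629 to 426 and from 512 to 454, changes of -0.56 and -0.17. Emg1, a methyltransferase, went from 1838 to 1504 and from 2056 to 1606, changes of -0.29 and -0.36. The smallest changes in the class were those of Noc4l and Imp4. Noc4l stood at 660 and 547 in wild-type cells and at 821 and 770 in tri-CH1 cells, changes of -0.27 and -0.09, although its other bright probe set gave -0.71 and -0.16. Imp4 stood at 630 and 563 and at 660 and 610, changes of -0.16 and -0.11. Nop14 and Tsr1 peaked at 458 and 497, under the limit of 500, and Rrp12 was under 200 on every array.

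Neither measured RNA polymerase I subunit was past 1.5-fold with oxygen. Polr1a, the largest subunit, had signals of 476 and 358 in wild-type cells and of 604 and 498 in tri-CH1 cells, changes of -0.41 and -0.28, and reached 500 only in tri-CH1 normoxia. Polr1c, a subunit shared with RNA polymerase III, stood at 813 and 823 in wild-type cells and at 961 and 777 in tri-CH1 cells, changes of 0.02 and -0.31. Its other probe set gave 0.16 and -0.25, the same directions. Polr1b peaked at 430 and was not counted. With 2 measured genes, only 1 of them counted in wild-type cells, the class gives little room for a comparison with the others.

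The abundant nucleolar proteins fell into separate patterns. Npm1 (nucleophosmin) and Ncl (nucleolin), the brightest members, were not lower in hypoxia. Npm1 stood at 8792 and 10341 in wild-type cells and at 10621 and 11054 in tri-CH1 cells, changes of 0.23 and 0.06, and Ncl at 5249 and 5841 and at 6416 and 6580, changes of 0.15 and 0.04. These 4 changes were within the spread between probe sets of a gene, an SD of 0.25 in wild-type cells and 0.29 in tri-CH1 cells. The other bright probe set of Npm1 gave -0.01 and 0.38, the latter beyond this spread, and that of Ncl gave 0.04 and 0.17. Mybbp1a, a regulator of ribosomal RNA synthesis, went from 2390 to 1394 in wild-type cells and from 2420 to 2022 in tri-CH1 cells, changes of -0.78 and -0.26, with -0.54 and -0.26 in its other probe set. Ddx21, an RNA helicase that links transcription to processing, went from 1102 to 720 and from 871 to 724, changes of -0.61 and -0.27, and its other bright probe set gave -1.25 and -0.59. Thus Mybbp1a and Ddx21 followed the assembly factors while Npm1 and Ncl did not.

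Pop5 and Wdr77 have known roles beyond ribosome assembly. In tri-CH1 Pop5 had the lowest change of the members, and in wild type Wdr77 or Rcl1 did, since that of Rcl1 is a bound and was -1.90 with no floor. Pop5 is a subunit of RNase P, which trims transfer RNA, and of RNase MRP, which cuts ribosomal RNA precursor. It went from 434 to 162 in wild-type cells, too dim to count, and from 575 to 221 in tri-CH1 cells, 2.61-fold lower. With a floor of 400 its tri-CH1 change was -0.52. Pop5 reached 500 only on the tri-CH1 normoxia array. Wdr77 is the partner of the arginine methyltransferase Prmt5 and is best known from spliceosome assembly. It went from 1520 to 431 in wild-type cells, 3.53-fold lower, and from 1271 to 826 in tri-CH1 cells, a change of -0.62. Its other bright probe set gave -1.51 and -0.91, with both hypoxia signals under 200. Without this pair of genes the median of the remaining 31 members was -0.56 in wild-type cells and -0.31 in tri-CH1 cells, an alternative chosen after seeing the data.

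**Figure D2:**
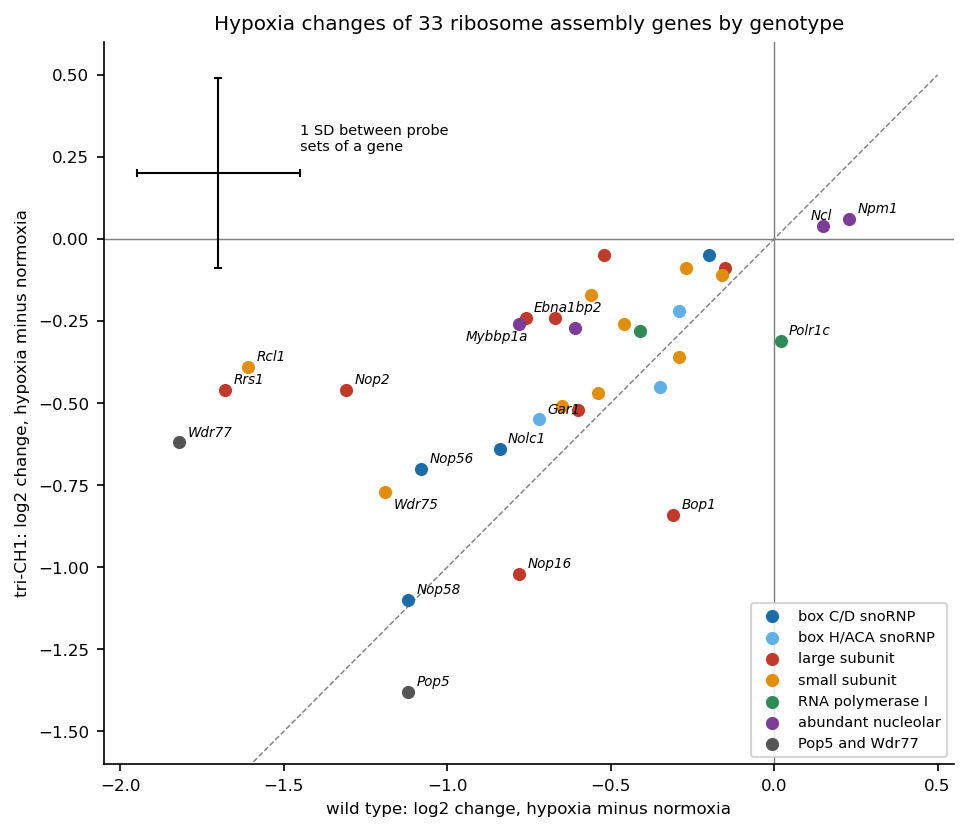
Log2 change between normoxia and hypoxia in wild type (x axis) and tri-CH1 (y axis) for the 33 measured members, 1 point per gene, coloured by class, with the line of equal change (dashed) and a cross of 1 SD between probe sets of a gene. Most points lie above the dashed line, and Wdr77, Rrs1, Rcl1 and Nop2 stand farthest from it on the left, at wild-type changes of -1.31 or lower.

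Across the 33 members the changes of the genotypes had a Pearson r of 0.56 and a Spearman rho of 0.67. This is a description over genes that share 4 arrays. Subtracting the wild-type from the tri-CH1 change gave a difference that had a median of 0.15, beside 0.03 for all genes. It was above 0 for 25 of 33 members, against 53.0% of all genes. For 6 members it was 0.5 or more, against 11.0%: Rrs1 at 1.22, Wdr77 at 1.20, Rcl1 at 1.21 or more, since its wild-type hypoxia signal was under 200, Nop2 at 0.85, Mybbp1a at 0.52 and Ebna1bp2 at 0.52. For 1 member, Bop1 at -0.52, it was -0.5 or less, against 9.09%. Which members reach 0.5 depends on the probe set. In the other bright probe set of Wdr77 it was 0.60, but both hypoxia signals there were under 200, so 0.60 reflects only the normoxia signals. In the other bright probe set it was 0.28 for Mybbp1a, 0.90 for Nop56, 0.67 for Ddx21 and 0.55 for Noc4l. A dimmer probe set of Ebna1bp2, under 500 on every array, gave -0.78, with its wild-type normoxia signal under 200. The spread of this difference between probe sets of a gene was an SD of 0.37, and it was not tested, since each genotype had 1 array per oxygen level. Nop58, at 0.01, is the member past 2-fold in both genotypes.

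By its brightest probe set, no member that counted differed by 2-fold between the genotypes at either oxygen level. The other bright probe set of Fbl did in normoxia, at 1268 in wild-type cells and 2575 in tri-CH1 cells, a difference of 1.02, against 0.31 in the brightest. In normoxia, none of 33 members was higher in tri-CH1 by 2-fold, against 3.16% of all genes, and none was lower by 2-fold, against 3.48%. The median difference was 0.04, and 20 of 33 were above 0, against 53.5%. Nop58 was highest in tri-CH1 cells relative to wild type, at 0.66, followed by Bop1 at 0.58 and Gar1 at 0.52, and Wdr75 was lowest, at -0.50. The sign of the normoxia median turned with median scaling, to -0.19, where the median of all genes was -0.20.

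In hypoxia the median difference between tri-CH1 and wild type was 0.19, beside 0.05 for all genes. Of the 24 members that counted, 20 were above 0, against 55.1%. None was higher by 2-fold, against 3.76%, and none lower by 2-fold, against 3.31%. In hypoxia 24 members reached 500 in tri-CH1 cells and 20 in wild-type cells. Wdr77, Rrs1, Gar1 and Nolc1 reached 500 only on the tri-CH1 array of this pair, so they could only be above 0. Of the members that counted, the highest were Wdr77 at 0.94, Rrs1 at 0.86 and Gar1 at 0.69, and the lowest was Nhp2 at -0.09. The other bright probe set of Wdr77 did not show this difference. Its hypoxia signals were 178 in wild-type and 140 in tri-CH1 cells, both under 200, which gave 0.00. Rcl1 had the largest difference, a log2 of at least 1.23, but its signals of 163 and 468 were too dim to count. The genotype comparison in hypoxia uses only the hypoxia arrays, which are of the same lot. Their scaled backgrounds were unequal, 246 for wild-type cells against 393 for tri-CH1 cells. Any part of the background in the genotype differences was not tested. Rrs1 lay below wild type in normoxia, at -0.36, and above it in hypoxia.

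**Figure D3:**
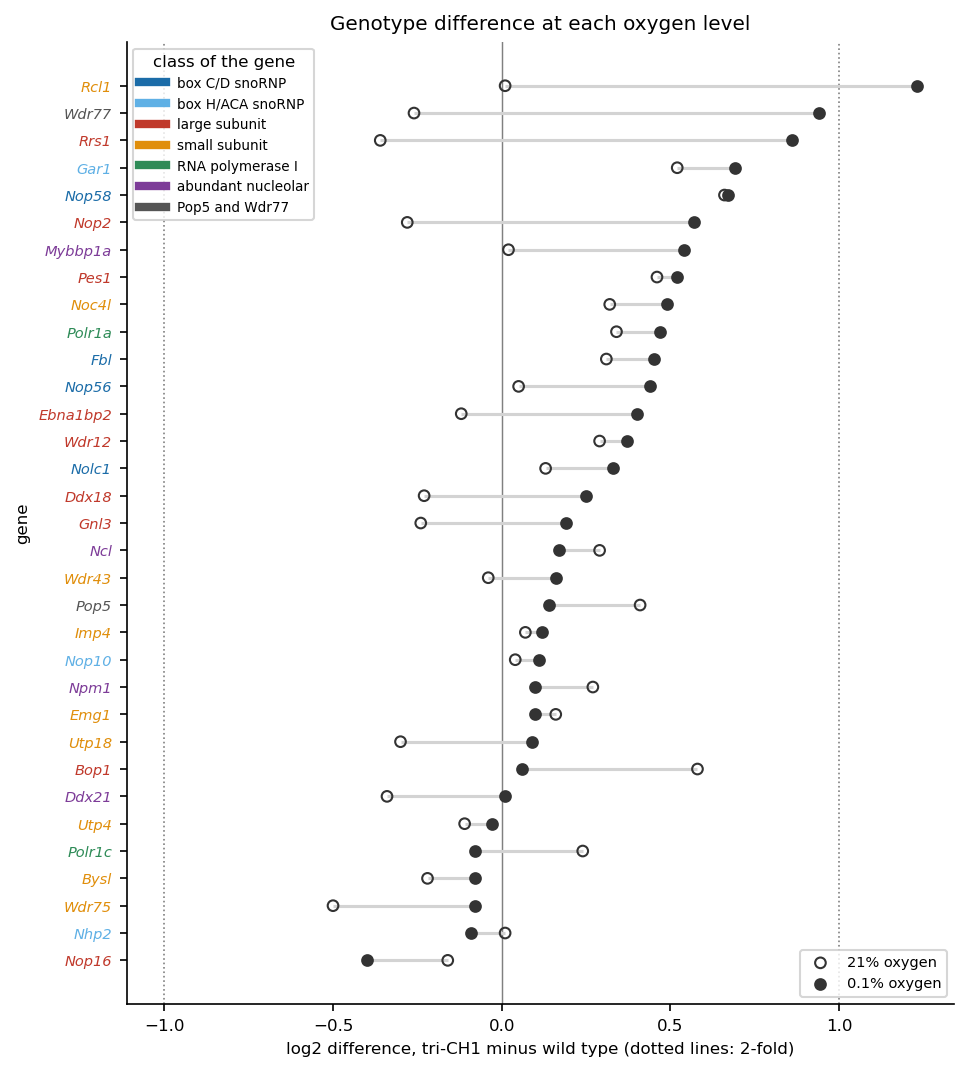
Log2 difference between tri-CH1 and wild type for the 33 measured members at 21% oxygen (open) and 0.1% oxygen (filled), ordered by the difference in hypoxia, with gene names coloured by class and dotted lines at 2-fold. Filled points lie to the right of 0 for most genes; that of Rcl1 is past 2-fold but comes from signals under 500.

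Other genes of the pathway, taken from a list of 134 further assembly genes, had medians of smaller size in the same direction. These genes were listed by their known role, though with earlier results of these arrays known. Of these, 71 reached 500. Their median was -0.25 in wild-type cells, where 49 of 64 that counted were below 0, against 56.9% of all genes. There 11 were lower by 1.5-fold, against 6.79%, and 1 by 2-fold, against 1.19%. Higher by 1.5-fold were 2, against 285 of 4125 genes. In tri-CH1 the median was -0.16, with 49 of 67 below 0, against 54.1% of all genes. There 7 were lower by 1.5-fold, against 6.36%, and 2 by 2-fold, against 0.987%. Higher by 1.5-fold was 1, against 373 of 4358 genes. The counts at 2-fold are too small to set apart from the shares of all genes. The gene lower by 2-fold in wild type was Naf1, an H/ACA assembly factor, which went from 543 to 263, and from 520 to 462 in tri-CH1 cells. In tri-CH1 they were Aatf, a small subunit factor, from 527 to 253, and Nol11, of the same early subcomplex as Utp4, from 993 to 464. In wild type Aatf was too dim to count and Nol11 went from 793 to 565. Ruvbl2, an ATPase that helps to build box C/D snoRNPs, had higher signals in hypoxia, from 1510 to 2484 in wild-type cells and from 1829 to 2795 in tri-CH1 cells, changes of 0.72 and 0.61.

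The proteins of the ribosome itself did not share the decrease in wild-type cells. Of 40 cytosolic ribosomal protein genes that reached 500, the median change was 0.07 in wild-type cells and -0.13 in tri-CH1 cells, and Rps27, at -1.40 in wild-type cells, was the only one past 2-fold with oxygen in either genotype. RNA exosome subunits, which trim ribosomal RNA precursors, had medians of -0.53 and -0.04 over 9 genes. In wild type 2 of 6 that counted, Exosc4 and Exosc1, were lower by 2-fold, at -1.30 and -1.28, against 1.19% of all genes. In tri-CH1 cells 1 of 8 was, Exosc1 at -1.07, against 0.987%. There Exosc4 went the other way, from 427 to 605, a change of 0.50. Proliferation genes had medians of -0.32 and -0.43 over 14 genes, with none past 2-fold, and their part in the members' change was not tested. Myc had signals of 1465 and 1050 in wild-type cells and of 695 and 1022 in tri-CH1 cells, changes of -0.48 and 0.56. In normoxia Myc was lower in tri-CH1 than in wild-type cells, at -1.08, and the members' median there was 0.04. Any part of Myc in the signals of the members was not tested.

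**Figure D4:**
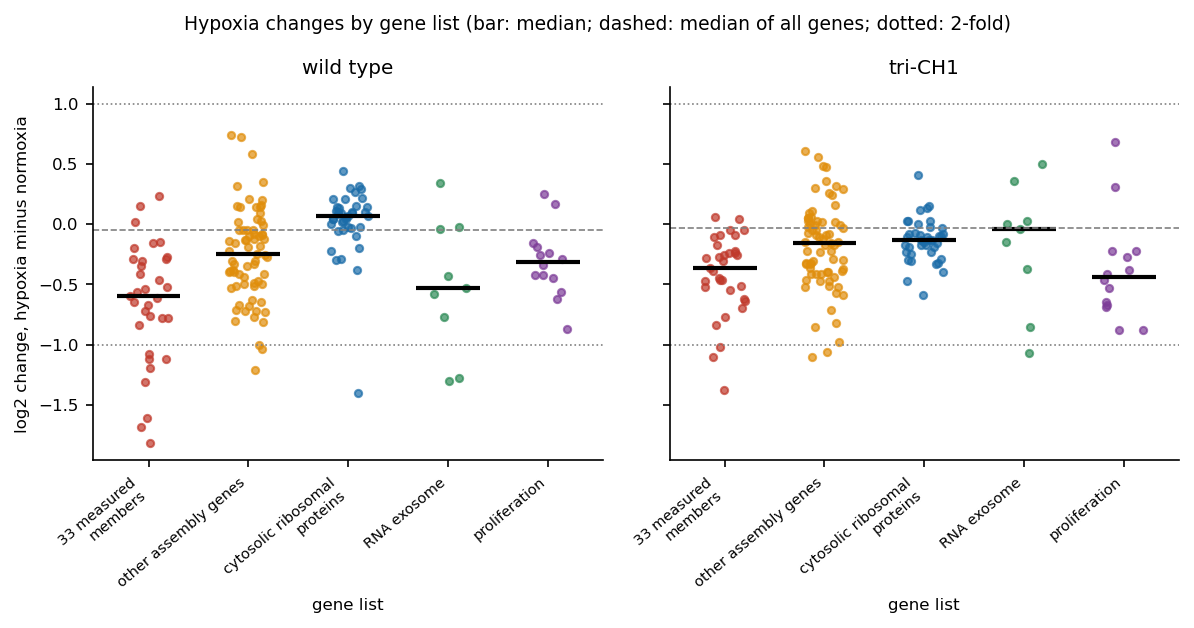
Log2 change between normoxia and hypoxia in wild type (left) and tri-CH1 (right) for the 33 measured members, 71 other assembly genes, 40 cytosolic ribosomal proteins, 9 RNA exosome subunits and 14 proliferation genes, 1 point per gene with the list's median as a bar, the median of all genes dashed and 2-fold dotted. The members' bar is the lowest in wild-type cells, at -0.60, and the bar of the proliferation genes the lowest in tri-CH1 cells, at -0.43.

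Further probe sets of the same genes show how far a change depends on the probe set. They lie on the same 4 arrays on which the list was selected, so they do not check the decrease itself. Of 63 probe sets of the measured members, 12 beside the brightest also reached 500, in 12 genes. In wild type 9 of these 12 were below 0, with a median of -0.54, beside 56.9% of all genes by their brightest probe set. The sign of the brightest was kept in 10, and Fbl and Npm1, near 0 in both, did not keep it. In tri-CH1 9 of 12 were below 0, beside 54.1% of all genes, with a median of -0.33. There 11 had the sign of the brightest, all but Nop56. Another 9 probe sets stayed under 200 on every array and carry no change. For 10 members, Rrs1, Rcl1, Nop2 and Nop58 among them, the array has a single probe set, so their changes have no such comparison.

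**Figure D5:**
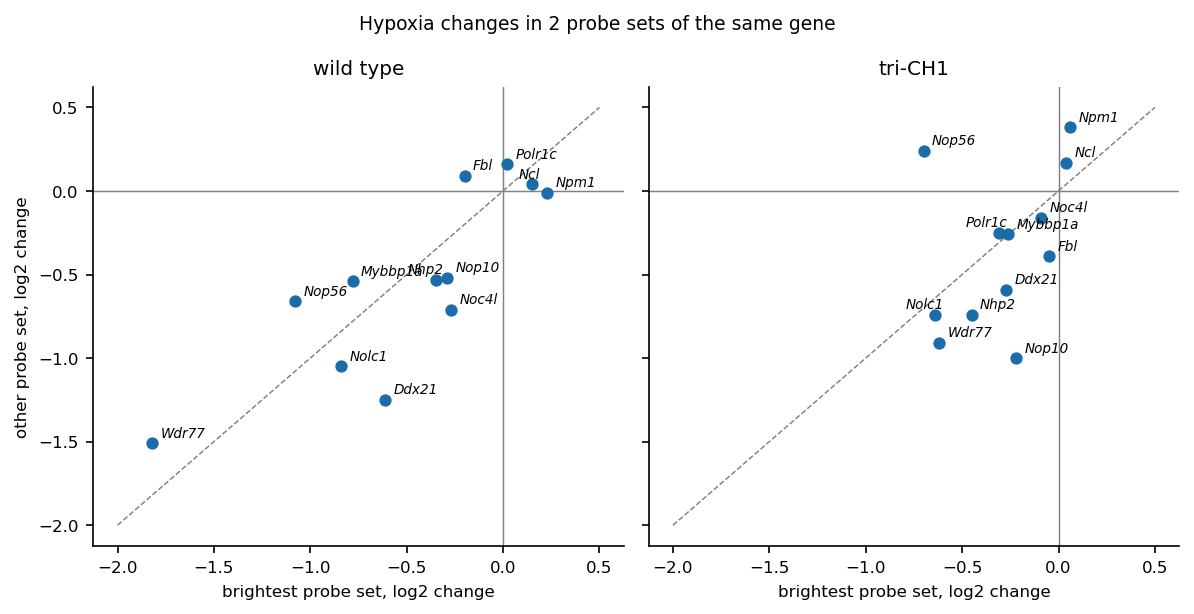
Log2 change between normoxia and hypoxia in the brightest probe set (x axis) and in the other probe set that reached 500 (y axis) for 12 members in wild type (left) and tri-CH1 (right), with the line of equal change dashed. In wild type Ddx21, at -0.61 and -1.25, lies well below the line, and in tri-CH1 Nop56, at -0.70 and 0.24, lies on the other side of 0.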

How the data were processed

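RNA was measured on 4 Affymetrix arrays, 1 per group. The authors' intensity for each probe set came, per the labels, from the statistical algorithm of Affymetrix, with background corrected and every array brought to a target of 500 by its own scale factor (3.46 to 10.3). The deposited intensity values are linear. Software and version are not given in the sources used here.

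Of 22690 probe sets, those with 1 gene symbol in the platform annotation were used, brightest per gene by mean signal, giving 12393 genes. The floor was 200, a gene was counted where at least 1 array of the pair reached 500, and calls were at 2-fold or, more loosely, 1.5-fold. No test was run, since 1 array per group has no replicate error, and the number of arrays limits the precision. The SD between probe sets of a gene (over its 2 brightest, difference over the square root of 2) came from 1505 genes. Members and lists were chosen with earlier results of these data known. Genes were named by a rule: all measured members, other assembly genes past 2-fold with oxygen, Myc, Crebbp, markers and sex-linked genes; Ruvbl2, Rps27, Exosc1, Exosc4 and the 3 members whose promoters are shown were chosen after their values were seen. Promoters are RefSeq sequences of GRCm38.p6. Gene coordinates of the array's design were not used here.

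Alternatives were floors of 100, 400 and none, minimum signals of 250 and 1000, median scaling, quantile normalization, cyclic loess, means over probe sets, plain _at probe sets and a 1.5-fold call. The calculation was tested on simulated data. Python 3.11.15, numpy 2.4.6, pandas 2.3.3, scipy 1.17.1, matplotlib 3.10.9 and limma 3.58.1 in R 4.3.3 were used. Probe sets for the gene of p300 were not analysed here.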

Additional observations from a re-analysis of the deposited data

Results flagged for a closer look

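Rrs1 was lower in tri-CH1 than in wild type in normoxia, at a log2 difference of -0.36, and higher in hypoxia, at 0.86. Both values are larger than the spread between probe sets of a gene and opposite in sign. The difference was not tested, since each group had 1 array, and Rrs1 has a single probe set.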

How the results depend on the processing

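The median hypoxia change of the members stayed below 0 under each alternative, between -0.66 and -0.52 in wild type and between -0.39 and -0.26 in tri-CH1. The median genotype difference in hypoxia stayed between 0.10 and 0.28, and that of the hypoxia changes between 0.11 and 0.30. The genotype median in normoxia, 0.04, ranged from -0.19 to 0.10. Median scaling moved the median of all genes to -0.13 for hypoxia in wild type, -0.20 for the genotypes in normoxia and 0.18 for the difference of the hypoxia changes. Members lower by 2-fold in wild-type hypoxia numbered 7, and 4 with a minimum signal of 1000, which leaves 19 members, and 15 were lower at the 1.5-fold call. In tri-CH1 hypoxia they numbered 3, and 1 with a floor of 400, 1 with the mean over all probe sets and 0 with a minimum of 1000, and 8 were lower at the 1.5-fold call. In the genotype comparison in hypoxia, 0 of 24 members were higher by 2-fold, and 1, Rcl1, with a minimum of 250. At the 1.5-fold call 3 of 24 were higher, against 461 of 4233 genes. In normoxia 0 of 33 were higher by 2-fold, and 1 at the 1.5-fold call, against 442 of 4333 genes. Nop2, Wdr75, Wdr77 and Rrs1 in wild type and Nop58 in tri-CH1 kept 2-fold in every setting that measured them. Nop56 was under 2-fold in wild type with the mean over probe sets, at -0.87, and Nop58 with a floor of 400, at -0.50. Of 405 class medians under the alternatives 20 moved by more than the spread between probe sets, and of 1660 changes of single members 53 did; none of those called turned in sign. No paired analysis was possible because each group has 1 array. Leaving out an array would leave its group empty. Signals near the scaled background, up to 393, limit the dimmer members.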
